A study of Rattus norvegicus with 12 samples.

Results

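Interferon-stimulated genes were measured by RNA sequencing in cultured cardiomyocytes, the beating muscle cells of the heart, from neonatal rat ventricles after small interfering RNA (siRNA) against Btg1, Btg2 or both. Btg1 and Btg2 encode related antiproliferative proteins that bind the CCR4-NOT deadenylase. The genes followed here were chosen by symbol from a list of 48, drawn up with earlier results of these data known. Of these, 46 had a row in both deposited tables, among 17419 genes in all, and these 46 all passed the filter on low counts, which left 12535 genes tested. No row stood under the symbols Herc6 and Xaf1, and these 2 were not analysed here.

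Cultures came from newborn (P0) wildtype Sprague-Dawley rats and were enriched for cardiomyocytes by removing fibroblasts, and RNA was taken 48 h after transfection. Each of the 4 groups had 3 libraries and received siRNA at a constant total dose. The scramble group received 20 nM of scrambled siRNA. The Btg1 knockdown received 10 nM of Btg1 siRNA with 10 nM of scramble, and the Btg2 knockdown 10 nM of Btg2 siRNA with 10 nM of scramble. The double knockdown combined the Btg1 and Btg2 siRNAs at 10 nM apiece, without scramble. Every comparison therefore replaced 10 or 20 nM of scramble by targeting siRNA, all groups were transfected, and what a lower target transcript does cannot be told apart from what the siRNA itself does. Whether the 3 libraries of a group are separate cultures or litters is not stated in the labels. The p-values below therefore describe the spread among the libraries at hand, which may be technical.

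Interferons are secreted signals released by cells that detect viral nucleic acid. Type I interferon receptors act through the kinases JAK1 and TYK2 to assemble the factor ISGF3, which holds STAT2 and IRF9 and binds the interferon-stimulated response element (ISRE). Interferon gamma acts mainly through another promoter element, the gamma-activated site (GAS). The induced genes block viral entry, RNA, translation and assembly, draw in lymphocytes, and include feedback inhibitors of the pathway. In cardiomyocytes, which are seldom replaced, this programme is known for limiting viral myocarditis.

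Total counts were 24434925 to 46206581 per library, and 1 count was worth 0.0213 to 0.0422 CPM, the unit of counts scaled to library size used below. Btg1 fell to 23.4% of its scramble level after its own siRNA and to 18.3% after both. Btg2 averaged 139 ± 6.41 CPM in scramble libraries (SD, n = 3), 175 ± 5 after the Btg1 siRNA, 85.2 ± 2.31 after the Btg2 siRNA and 68.7 ± 0.983 after both. The Btg2 siRNA thus left more of its target, and the Btg1 siRNA alone left Btg2 higher than in scramble. Replicate 3 of the Btg1 knockdown stood apart from the other 2 libraries of its group in many members, as given beside the results. Cardiomyocyte markers summed to 27160 to 33170 CPM per library and fibroblast markers to 12470 to 16170, so fibroblast RNA remained in the enriched cultures.

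The promoters of 7 members are printed, chosen for how these members changed. Rsad2 and Ifi47 had the largest rises among members above 10 CPM. Cxcl11, Cxcl10 and Cxcl9 lie next to each other on chromosome 14 yet did not move alike. Oas1a and Oas1b are near copies, of which Oas1a also passed as a fall with the Btg2 siRNA alone. Windows run from 250 bases before to 50 after a RefSeq start in the assembly GRCr8, 5′ to 3′ on the gene's strand, and capitals mark the ISRE core (GAAANNGAA) or the GAS (TTCNNNGAA), each searched on both strands. The Rsad2 window lies at chr6:48788071-48788370 (- strand), that of Ifi47 at chr10:33798494-33798793 (+ strand), Cxcl11 at chr14:15973478-15973777 (+ strand), Cxcl10 at chr14:15988816-15989115 (+ strand), Cxcl9 at chr14:16006916-16007215 (+ strand), Oas1a at chr12:41330216-41330515 (+ strand) and Oas1b at chr12:41395803-41396102 (- strand).
Rsad2: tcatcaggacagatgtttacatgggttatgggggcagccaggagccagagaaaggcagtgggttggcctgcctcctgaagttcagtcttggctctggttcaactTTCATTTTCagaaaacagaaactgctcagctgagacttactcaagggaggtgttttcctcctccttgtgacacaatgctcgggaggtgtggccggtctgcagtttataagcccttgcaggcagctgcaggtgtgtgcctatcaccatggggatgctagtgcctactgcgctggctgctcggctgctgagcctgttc
Ifi47: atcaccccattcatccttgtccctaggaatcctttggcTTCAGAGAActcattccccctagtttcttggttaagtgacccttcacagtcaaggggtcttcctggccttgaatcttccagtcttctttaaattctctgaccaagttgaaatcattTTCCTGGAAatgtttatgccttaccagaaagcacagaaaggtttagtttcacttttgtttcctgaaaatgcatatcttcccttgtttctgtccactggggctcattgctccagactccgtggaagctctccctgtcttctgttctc
Cxcl11: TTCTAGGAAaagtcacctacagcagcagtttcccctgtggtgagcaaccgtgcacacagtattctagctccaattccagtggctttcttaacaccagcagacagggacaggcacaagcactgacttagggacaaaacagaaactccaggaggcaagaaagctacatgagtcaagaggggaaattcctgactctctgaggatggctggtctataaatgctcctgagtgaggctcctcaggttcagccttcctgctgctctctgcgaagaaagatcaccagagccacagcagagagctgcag
Cxcl10: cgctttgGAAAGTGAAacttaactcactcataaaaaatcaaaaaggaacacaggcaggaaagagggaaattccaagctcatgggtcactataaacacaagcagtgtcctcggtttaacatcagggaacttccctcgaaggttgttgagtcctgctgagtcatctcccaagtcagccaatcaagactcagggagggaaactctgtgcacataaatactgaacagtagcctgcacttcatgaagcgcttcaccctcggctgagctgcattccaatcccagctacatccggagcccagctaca
Cxcl9: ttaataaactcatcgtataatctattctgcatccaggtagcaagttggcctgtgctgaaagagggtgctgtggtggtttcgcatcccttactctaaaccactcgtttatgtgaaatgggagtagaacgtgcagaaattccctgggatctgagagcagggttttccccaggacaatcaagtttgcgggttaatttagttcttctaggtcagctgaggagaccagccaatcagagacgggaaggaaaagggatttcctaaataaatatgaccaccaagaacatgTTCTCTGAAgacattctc
Oas1a: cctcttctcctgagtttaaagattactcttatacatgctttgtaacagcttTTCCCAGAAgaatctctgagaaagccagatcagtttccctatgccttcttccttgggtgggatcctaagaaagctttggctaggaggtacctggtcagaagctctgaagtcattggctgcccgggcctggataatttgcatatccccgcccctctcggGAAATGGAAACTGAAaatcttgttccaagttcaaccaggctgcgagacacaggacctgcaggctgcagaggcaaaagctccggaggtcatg
Oas1b: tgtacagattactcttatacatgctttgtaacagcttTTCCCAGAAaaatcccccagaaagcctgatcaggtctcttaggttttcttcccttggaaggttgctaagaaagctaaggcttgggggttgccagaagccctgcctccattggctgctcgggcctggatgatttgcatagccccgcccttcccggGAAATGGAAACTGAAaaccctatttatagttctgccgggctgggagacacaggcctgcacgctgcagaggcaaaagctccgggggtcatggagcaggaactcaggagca

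Rsad2 holds 1 ISRE core, read on the opposite strand, 146 to 138 bases before the start. Ifi47 holds no ISRE core but 2 GAS, the nearer at 96 to 88 bases. Cxcl10 holds 1 ISRE core, 243 to 235 bases before the start, and Cxcl9 and Cxcl11 hold 1 GAS each and no ISRE core. Oas1a and Oas1b share a pair of overlapping ISRE cores with the same letters, GAAATGGAAACTGAA, and a GAS with the letters TTCCCAGAA. A window was given for 38 of the 48 listed genes. An ISRE core stood in 23 of these (60.5%), against 3251 of all 33469 windows of the same length (9.71%), and a GAS in 15 (39.5%), against 2970 windows (8.87%). A match is a run of letters and not a bound site, and 17 of the 38 windows surround a start downstream of the gene's outermost RefSeq start.

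In scramble cultures the members already spanned a wide range of levels. Per length and depth, in the deposited TPM values, Ifi27 was highest at 2168 ± 50.1 (SD, n = 3), above Ifitm3 at 1290 ± 20.7, Lgals3bp at 1024 ± 23.4, Isg15 at 769 ± 17.6 and Mx2 at 541 ± 7.94 TPM. These 5 neighbours in the order were further apart than their SDs. Cxcl10 stood at 427 ± 3.20 TPM. At the low end Socs1 stood at 7.47 ± 1.05, Cxcl9 at 4.90 ± 1.83, Zbp1 at 2.80 ± 0.436, Irf8 at 1.67 ± 0.577, Ifit1 at 1.13 ± 0.115 and Oas3 at 0.233 ± 0.231 TPM, where the SDs of Irf8 and Ifit1 overlapped. The 46 members together made 0.995 to 1.02% of all TPM in scramble libraries, 1.11 to 1.22% with Btg1 knockdown, 0.907 to 0.923% with Btg2 knockdown and 1.11 to 1.15% with double knockdown.

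With Btg1 knockdown most members rose by a moderate amount. By edgeR's quasi-likelihood F test, with Benjamini-Hochberg adjustment over all tested genes at 0.05, 36 of 46 were higher than scramble and 1 was lower, with a median log2 change of 0.41 over the members against -0.001 over all genes. Across all genes 18.7% were higher and 17.8% lower in that comparison. With double knockdown 33 members were higher and 4 lower (median 0.31), against 19.4% and 19.5% of all genes; without scramble replicate 1 they were 32 and 2. With Btg2 knockdown 7 were higher and 13 lower (median -0.08), against 16.4% and 13.6%. The plot of changes against scramble shows this pattern member by member.

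**Figure D1:**
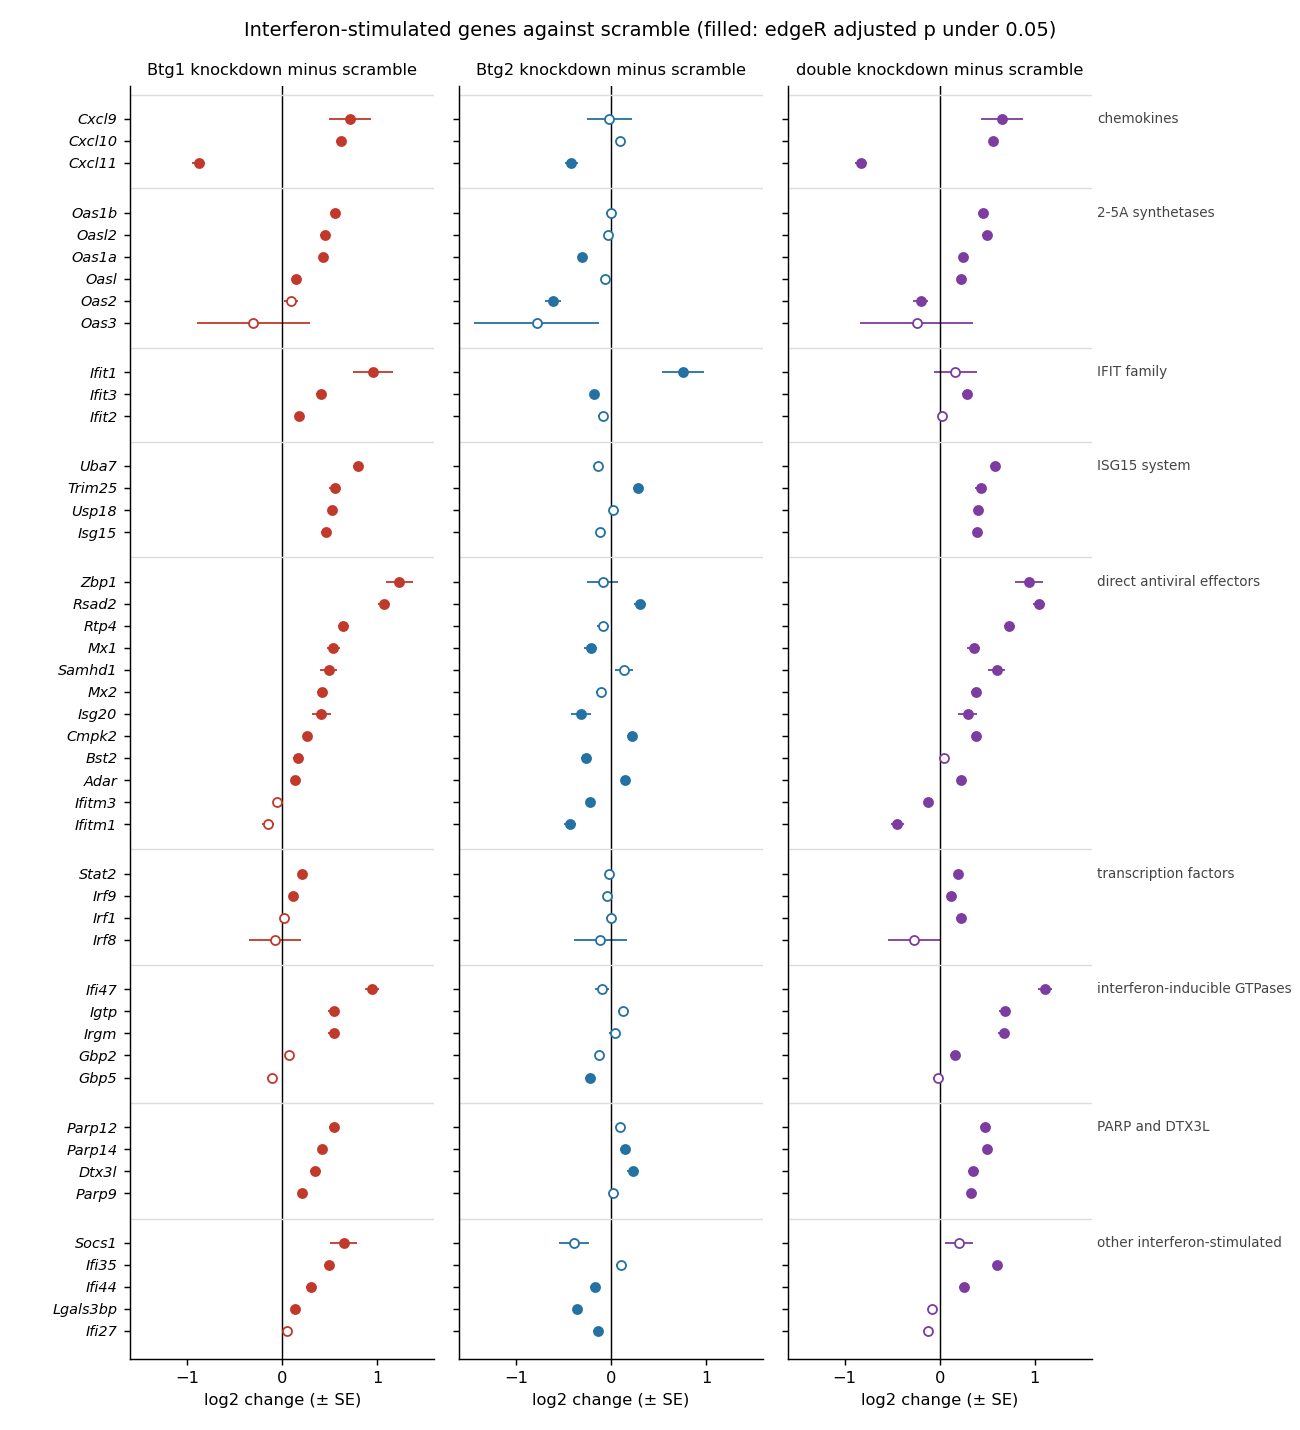
Log2 change against scramble (x axis) of each of the 46 members (rows, grouped by role) with Btg1 knockdown, Btg2 knockdown and double knockdown; points are edgeR estimates, bars 1 SE, and filled points passed at an adjusted p of 0.05. In the left and right panels most members lie right of 0, with Cxcl11 the furthest to the left, and in the middle panel the members lie on both sides of 0.

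Among the chemokines, which draw CXCR3-bearing lymphocytes, Cxcl10 and Cxcl9 rose and Cxcl11 fell. Cxcl10 stood at 246, 244 and 246 CPM in the scramble libraries, 364, 407 and 354 with Btg1 knockdown, 261, 264 and 262 with Btg2 knockdown and 379.7, 356 and 347 with double knockdown. The 6 libraries with the Btg1 siRNA lay above the 6 without it, and those of scramble and Btg2 knockdown lay far closer to each other. Its log2 change was 0.61 ± 0.05 (adjusted p = 4.3e-10) with Btg1 knockdown and 0.56 ± 0.05 (adjusted p = 1.2e-09) with double knockdown, a 1.53-fold and a 1.47-fold rise. Cxcl11 stood at 86.1, 75.0 and 80.2 CPM in the scramble libraries, 42.4, 49.6 and 39.1 with Btg1 knockdown, 58.6, 62.9 and 59.4 with Btg2 knockdown and 43.4, 46.7 and 45.7 with double knockdown. Scramble libraries were highest, Btg2 knockdown libraries intermediate, and both groups with the Btg1 siRNA lowest and overlapping each other. Its log2 change was -0.88 ± 0.07 (adjusted p = 3e-09) with Btg1 knockdown, -0.42 ± 0.07 (adjusted p = 8.6e-05) with Btg2 knockdown and -0.83 ± 0.07 (adjusted p = 5.4e-09) with double knockdown. Cxcl9 was scarce, at 0.929, 1.26 and 1.91 CPM in the scramble libraries, 2.32, 2.07 and 2.35 with Btg1 knockdown, 1.34, 1.69 and 1.13 with Btg2 knockdown and 2.22, 2.04 and 2.23 with double knockdown. It rose by 0.71 ± 0.22 (adjusted p = 0.014) with Btg1 knockdown and 0.65 ± 0.22 (adjusted p = 0.022) with double knockdown. Without scramble replicate 1 the adjusted p of Cxcl9 was 0.096 and 0.13 in these comparisons, and without scramble replicate 2 it was 0.055 and 0.079. The double knockdown call was also lost without replicate 1 of that group (adjusted p = 0.052) or replicate 3 (0.0502).

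The oligoadenylate synthetases make the second messenger that switches on the nuclease RNase L. Of 6 tested members 4 rose (66.7%, against 18.7% of all genes) and 0 fell with Btg1 knockdown. With Btg2 knockdown 0 rose and 2 fell (33.3%, against 13.6%). Oas1b stood at 41.7, 44.6 and 41.0 CPM in the scramble libraries, 63.8, 65.6 and 58.1 with Btg1 knockdown, 42.4, 43.1 and 41.9 with Btg2 knockdown and 56.2, 60.5 and 57.8 with double knockdown. Its libraries with the Btg1 siRNA lay above all others, and scramble and Btg2 knockdown overlapped. The log2 change was 0.56 ± 0.05 (adjusted p = 2.2e-08) with Btg1 knockdown and 0.46 ± 0.05 (adjusted p = 4.1e-07) with double knockdown. Oas1a stood at 102, 103 and 105 CPM in the scramble libraries, 141, 146 and 129 with Btg1 knockdown, 81.2, 87.0 and 82.8 with Btg2 knockdown and 123, 121 and 124 with double knockdown. Here Btg2 knockdown lay below scramble, and double knockdown lay between scramble and Btg1 knockdown, with no overlap between any of these groups. Oas1a changed by 0.43 ± 0.04 (adjusted p = 7.6e-08) with Btg1 knockdown, -0.31 ± 0.05 (adjusted p = 2e-05) with Btg2 knockdown and 0.25 ± 0.04 (adjusted p = 9.5e-05) with double knockdown. Oasl2 stood at 106, 106 and 103 CPM in the scramble libraries, 149, 151 and 129 with Btg1 knockdown, 102, 101 and 106 with Btg2 knockdown and 148, 151 and 145 with double knockdown. It rose by 0.45 ± 0.05 (adjusted p = 1.6e-07) with Btg1 knockdown and 0.49 ± 0.05 (adjusted p = 2.8e-08) with double knockdown, while its Btg2 knockdown libraries overlapped scramble. Oas2 stood at 20.2, 21.1 and 18.6 CPM in the scramble libraries, 22.4, 22.1 and 19.2 with Btg1 knockdown, 12.4, 12.7 and 14.0 with Btg2 knockdown and 16.5, 17.6 and 18.0 with double knockdown. Every Btg2 knockdown library lay below every library of the other groups. Its log2 change was -0.61 ± 0.08 (adjusted p = 4.6e-06) with Btg2 knockdown and 0.09 ± 0.08 with Btg1 knockdown, which did not pass. It was at -0.20 ± 0.08 (adjusted p = 0.044) with double knockdown, a call lost without scramble replicate 1 (adjusted p = 0.10) or 2 (0.18), or without double knockdown replicate 1 (0.14) or 2 (0.070). The Oas2 call was also lost, at an adjusted p of 0.051 to 0.058, with DESeq2, relative log expression (RLE) scaling, no filter on low counts, the replicate number as a block and a fit of only the groups compared, and at 0.093 with limma on TPM. Oasl rose by 0.14 ± 0.04 (adjusted p = 0.011) with Btg1 knockdown, which did not pass without scramble replicate 1 (adjusted p = 0.069). Oas3, at 0.101 to 0.629 CPM, passed in no comparison. These genes are near copies in a cluster (Oas1a, Oas1b, Oas3, Oas2), and the way shared reads were counted is not given, so values of single copies are uncertain. That also holds for the Ifit, Mx, Ifitm, Gbp and immunity-related GTPase genes below.

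The IFIT proteins bind foreign RNA and hold back its translation. All 3 rose with Btg1 knockdown, by 0.95 ± 0.21 (adjusted p = 9.6e-04) for Ifit1, 0.40 ± 0.05 (adjusted p = 8.7e-07) for Ifit3 and 0.18 ± 0.05 (adjusted p = 0.0063) for Ifit2. Ifit3 stood at 225, 231 and 231 CPM in the scramble libraries, 309.6, 325 and 275 with Btg1 knockdown, 194, 205 and 210.1 with Btg2 knockdown and 282, 288 and 267 with double knockdown. The libraries with the Btg1 siRNA were highest, and those of Btg2 knockdown were all below scramble. Ifit3 changed by 0.28 ± 0.05 (adjusted p = 7.1e-05) with double knockdown and -0.17 ± 0.05 (adjusted p = 0.0099) with Btg2 knockdown. Ifit2 stood at 154, 152 and 153 CPM in the scramble libraries, 181, 178 and 159.8 with Btg1 knockdown, 136, 146 and 151 with Btg2 knockdown and 158, 163 and 146 with double knockdown. Its Btg1 knockdown libraries lay above scramble, and the double knockdown libraries lay on both sides of the scramble range. Ifit1 was scarce, at 1.02, 1.29 and 1.25 CPM in the scramble libraries, 2.62, 2.18 and 2.09 with Btg1 knockdown, 1.55, 2.61 and 2.00 with Btg2 knockdown and 1.30, 1.39 and 1.31 with double knockdown. Each siRNA alone went with higher values, and the double knockdown libraries were close to scramble. Ifit1 changed by 0.76 ± 0.22 (adjusted p = 0.011) with Btg2 knockdown and 0.16 ± 0.23 with double knockdown, which did not pass. The Btg2 knockdown call was lost without scramble replicate 1 (adjusted p = 0.051) or without Btg2 knockdown replicate 2 (0.067), and that of Ifit3 without Btg2 knockdown replicate 1 (0.058).

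ISG15 is a small protein that is attached to others like ubiquitin. The 4 tested members of its system rose in both groups with the Btg1 siRNA. Uba7, the enzyme that activates ISG15 for attachment, stood at 60.7, 62.3 and 63.4 CPM in the scramble libraries, 111, 113 and 98.5 with Btg1 knockdown, 59.6, 53.6 and 56.2 with Btg2 knockdown and 95.5, 89.3 and 93.4 with double knockdown. The groups with the Btg1 siRNA did not overlap each other or the rest, and Btg1 knockdown was highest. Uba7 rose by 0.79 ± 0.05 (adjusted p = 7.4e-11) with Btg1 knockdown, 1.73-fold, and 0.58 ± 0.05 (adjusted p = 8.8e-09) with double knockdown. Usp18, which removes ISG15 and dampens receptor signalling, stood at 226, 230.0 and 224 CPM in the scramble libraries, 333, 346 and 298 with Btg1 knockdown, 231, 223 and 237 with Btg2 knockdown and 292, 299 and 305 with double knockdown. It rose by 0.52 ± 0.04 (adjusted p = 4.3e-09) with Btg1 knockdown and 0.40 ± 0.04 (adjusted p = 2.2e-07) with double knockdown, and Btg2 knockdown overlapped scramble. Trim25, a ubiquitin ligase that helps the sensor RIG-I signal, stood at 56.9, 62.0 and 58.6 CPM in the scramble libraries, 92.5, 87.6 and 79.9 with Btg1 knockdown, 76.1, 70.5 and 69.6 with Btg2 knockdown and 82.0, 75.9 and 81.0 with double knockdown. All 9 libraries with a targeting siRNA lay above the scramble libraries. Its log2 change was 0.55 ± 0.05 (adjusted p = 3.9e-08) with Btg1 knockdown, 0.28 ± 0.06 (adjusted p = 4.1e-04) with Btg2 knockdown and 0.43 ± 0.05 (adjusted p = 1.4e-06) with double knockdown. Isg15 itself rose by 0.46 ± 0.05 (adjusted p = 4.9e-08) with Btg1 knockdown and 0.39 ± 0.05 (adjusted p = 4e-07) with double knockdown, 1.37-fold and 1.31-fold.

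**Figure D2:**
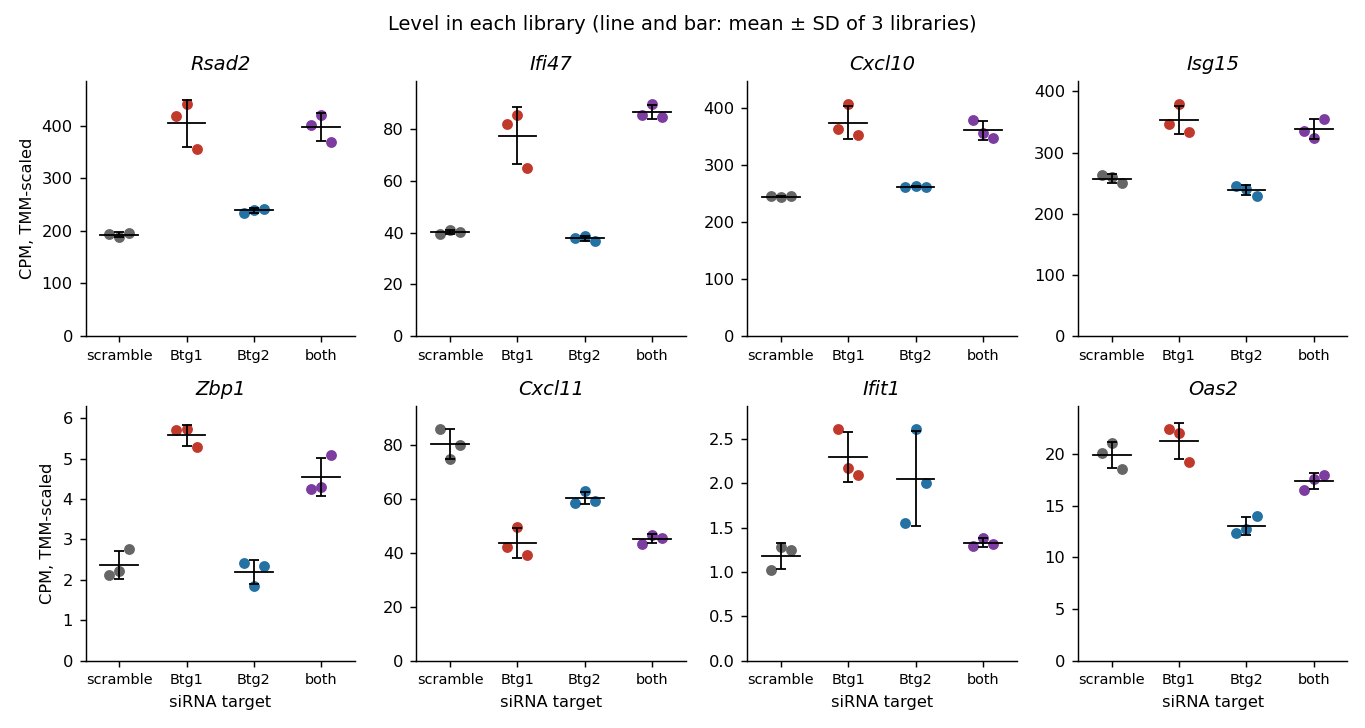
TMM-scaled CPM (y axes, each from 0) of 8 members in each of the 12 libraries, by siRNA target (x axes); lines and bars are the mean ± SD of 3 libraries. In Rsad2, Ifi47, Cxcl10, Isg15 and Zbp1 the 6 libraries with the Btg1 siRNA lie above the other 6, while Cxcl11, Ifit1 and Oas2 follow other patterns.

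Of 12 direct antiviral effectors tested, 10 rose (83.3%, against 18.7% of all genes) and 0 fell with Btg1 knockdown. With double knockdown 9 rose (75.0%, against 19.4%) and 2 fell (16.7%, against 19.5%). Rsad2, also called viperin, makes a nucleotide that ends viral RNA chains. It stood at 194, 189 and 197 CPM in the scramble libraries, 418, 441 and 355 with Btg1 knockdown, 234, 240.1 and 242 with Btg2 knockdown and 402, 421 and 369 with double knockdown. The means of Btg1 and double knockdown were 209.5% and 206% of scramble, Btg2 knockdown lay slightly above scramble, and replicate 3 was lowest in both high groups. Rsad2 rose by 1.07 ± 0.06 (adjusted p = 7.8e-10) with Btg1 knockdown, 0.31 ± 0.06 (adjusted p = 0.0012) with Btg2 knockdown and 1.04 ± 0.06 (adjusted p = 7.5e-10) with double knockdown. Zbp1, a sensor of left-handed double-stranded nucleic acid that can start necroptosis, stood at 2.13, 2.22 and 2.77 CPM in the scramble libraries, 5.72, 5.73 and 5.28 with Btg1 knockdown, 2.40, 1.85 and 2.34 with Btg2 knockdown and 4.25, 4.29 and 5.08 with double knockdown. It was the largest rise by Btg1 knockdown among the members, from a low level, by 1.23 ± 0.14 (adjusted p = 4.7e-07), and it rose by 0.94 ± 0.15 (adjusted p = 2.2e-05) with double knockdown. Rtp4, an inhibitor of viral genome amplification, stood at 96.2, 94.9 and 97.8 CPM in the scramble libraries, 156, 163 and 131 with Btg1 knockdown, 87.6, 94.6 and 90.6 with Btg2 knockdown and 156, 164 and 158 with double knockdown. Btg1 knockdown replicate 3 was lowest among the 6 high libraries and still above all others. Rtp4 rose by 0.64 ± 0.06 (adjusted p = 3.4e-08) with Btg1 knockdown and 0.73 ± 0.06 (adjusted p = 4.4e-09) with double knockdown.

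The other effectors rose less. The dynamin-like GTPases Mx1 and Mx2 changed by 0.54 ± 0.07 and 0.42 ± 0.05 with Btg1 knockdown, the nuclease Isg20 by 0.41 ± 0.10, the dNTP hydrolase Samhd1 by 0.49 ± 0.09, and Cmpk2, the nucleotide kinase gene beside Rsad2, by 0.27 ± 0.05. Bst2, which tethers budding virus, changed by 0.16 ± 0.05 and the RNA editor Adar by 0.14 ± 0.04, and these 7 passed. Bst2 did not pass without scramble replicate 1 (adjusted p = 0.059) or 3 (0.14), or without Btg1 knockdown replicate 1 (0.068) or 2 (0.057). The membrane proteins Ifitm1 and Ifitm3, which hinder viral fusion, did not rise. Ifitm1 changed by -0.15 ± 0.07 (adjusted p = 0.081) with Btg1 knockdown, -0.43 ± 0.07 (adjusted p = 6.3e-05) with Btg2 knockdown and -0.45 ± 0.07 (adjusted p = 1.8e-05) with double knockdown. Ifitm3 changed by -0.06 ± 0.04, -0.22 ± 0.04 (adjusted p = 1.1e-04) and -0.12 ± 0.04 (adjusted p = 0.011) in the same order, the last not passing without scramble replicate 1 (adjusted p = 0.059). With Btg2 knockdown 3 of the 12 effectors rose (25.0%, against 16.4% of all genes) and 5 fell (41.7%, against 13.6%). The rises were Rsad2, Cmpk2 and Adar, and Adar did not pass in double minus Btg2 knockdown. The falls were Mx1, Bst2, Isg20, Ifitm1 and Ifitm3, and the calls of Mx1 and Isg20 were lost under some alternatives.

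The transcription factors of the pathway moved little. Stat2, a subunit of ISGF3, stood at 290.2, 281 and 286 CPM in the scramble libraries, 336, 346 and 304 with Btg1 knockdown, 281, 279.8 and 284 with Btg2 knockdown and 323, 328 and 328 with double knockdown. Its libraries with the Btg1 siRNA lay above the others by a small margin, with changes of 0.20 ± 0.04 (adjusted p = 3.6e-04) and 0.19 ± 0.04 (adjusted p = 5.8e-04). Irf9, the DNA-binding subunit, stood at 97.3, 94.3 and 89.0 CPM in the scramble libraries, 105, 102 and 98.0 with Btg1 knockdown, 94.2, 88.0 and 89.9 with Btg2 knockdown and 102, 101 and 103 with double knockdown. It changed by 0.12 ± 0.04 (adjusted p = 0.037) with Btg1 knockdown and 0.12 ± 0.04 (adjusted p = 0.029) with double knockdown, with the ranges separated by less than 1 CPM in the first. With Btg1 knockdown the Irf9 call was lost without scramble replicate 2 (adjusted p = 0.070) or 3 (0.195), or without Btg1 knockdown replicate 1 (0.157) or 2 (0.081), with library size alone (0.065), with no filter (0.0505) and with limma on TPM (0.083 to 0.084), and with double knockdown without scramble replicate 2 (0.058) or 3 (0.16), or without double knockdown replicate 1 (0.0596) or 3 (0.054). Irf1, the factor of the GAS arm, stood at 76.5, 76.4 and 75.4 CPM in the scramble libraries, 77.8, 82.9 and 70.9 with Btg1 knockdown, 78.7, 74.9 and 74.5 with Btg2 knockdown and 88.0, 89.3 and 88.8 with double knockdown. Only the double knockdown lay apart, and there it rose by 0.22 ± 0.05 (adjusted p = 8.6e-04), against 0.02 ± 0.05 with Btg1 knockdown, which did not pass. Irf8, a factor of myeloid cells, passed in no comparison at 0.659 to 1.29 CPM.

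Interferon-inducible GTPases act on the vacuoles of intracellular pathogens. The 3 immunity-related GTPases (IRG) among the members rose in both groups with the Btg1 siRNA. Ifi47 stood at 39.4, 41.0 and 40.3 CPM in the scramble libraries, 82.1, 85.3 and 64.8 with Btg1 knockdown, 37.8, 38.8 and 36.6 with Btg2 knockdown and 85.6, 89.6 and 84.7 with double knockdown. The double knockdown libraries were at or above the highest Btg1 knockdown value except for replicate 3 of that group, which lay slightly below it, and scramble and Btg2 knockdown lay close together. Ifi47 rose by 0.95 ± 0.07 (adjusted p = 5.1e-09) with Btg1 knockdown and 1.11 ± 0.07 (adjusted p = 4.2e-10) with double knockdown, 1.93-fold and 2.15-fold. Irgm stood at 65.5, 65.7 and 67.9 CPM in the scramble libraries, 100.5, 102 and 86.3 with Btg1 knockdown, 65.6, 67.2 and 71.4 with Btg2 knockdown and 107, 110.0 and 100.4 with double knockdown. It rose by 0.54 ± 0.06 (adjusted p = 8e-08) with Btg1 knockdown and 0.67 ± 0.06 (adjusted p = 2.3e-09) with double knockdown. Igtp stood at 79.6, 73.1 and 75.8 CPM in the scramble libraries, 119.7, 114 and 99.1 with Btg1 knockdown, 80.0, 86.6 and 83.6 with Btg2 knockdown and 121, 128 and 118 with double knockdown. It rose by 0.54 ± 0.06 (adjusted p = 1.5e-07) with Btg1 knockdown and 0.68 ± 0.06 (adjusted p = 4e-09) with double knockdown, and both these genes had the Btg1 siRNA libraries above all others. The guanylate-binding proteins Gbp2 and Gbp5 changed by 0.07 ± 0.05 and -0.10 ± 0.05 with Btg1 knockdown and did not pass. With double knockdown against scramble Gbp2 was higher and Gbp5 did not pass. That call of Gbp2 was lost without double knockdown replicate 1 (adjusted p = 0.060) or 2 (0.084). Gbp5 was lower with Btg2 knockdown, and both genes were higher in double minus Btg2 knockdown.

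The PARP enzymes attach ADP-ribose to proteins, and PARP9 acts with the ubiquitin ligase DTX3L. All 4 tested genes of this group rose in both groups with the Btg1 siRNA. Parp12 stood at 81.0, 86.8 and 84.2 CPM in the scramble libraries, 128, 128 and 112 with Btg1 knockdown, 92.0, 88.8 and 87.7 with Btg2 knockdown and 110.0, 117 and 123 with double knockdown. The libraries with the Btg1 siRNA were all above the rest, and Parp12 rose by 0.55 ± 0.05 (adjusted p = 2e-08) with Btg1 knockdown and 0.47 ± 0.05 (adjusted p = 1.6e-07) with double knockdown. Parp14 stood at 179, 175 and 179.7 CPM in the scramble libraries, 251, 247 and 216 with Btg1 knockdown, 188, 199.8 and 203 with Btg2 knockdown and 257, 256 and 241 with double knockdown. Btg1 knockdown replicate 3 was the lowest of the high libraries, and Parp14 rose by 0.42 ± 0.05 (adjusted p = 3e-07) with Btg1 knockdown, 0.15 ± 0.05 (adjusted p = 0.023) with Btg2 knockdown and 0.50 ± 0.05 (adjusted p = 2.2e-08) with double knockdown. The Btg2 knockdown call of Parp14 was lost without scramble replicate 1 (adjusted p = 0.061) or 2 (0.088), or without Btg2 knockdown replicate 2 (0.078) or 3 (0.11). Parp9 stood at 219, 211 and 210.1 CPM in the scramble libraries, 258, 250.2 and 230.1 with Btg1 knockdown, 211, 212 and 225 with Btg2 knockdown and 272, 268 and 261 with double knockdown. It rose by 0.21 ± 0.04 (adjusted p = 4.5e-04) with Btg1 knockdown and 0.32 ± 0.04 (adjusted p = 1.8e-06) with double knockdown, and Dtx3l, between Parp9 and Parp14 in the genome, by 0.35 ± 0.06 and 0.35 ± 0.06. Dtx3l was also higher with Btg2 knockdown, and it did not pass in double minus Btg2 knockdown, where the other 3 genes were higher.

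Of the 5 other members 4 rose with Btg1 knockdown. Ifi35, a cytosolic leucine-zipper protein, stood at 59.4, 61.1 and 61.4 CPM in the scramble libraries, 83.3, 89.6 and 82.6 with Btg1 knockdown, 64.4, 66.6 and 64.6 with Btg2 knockdown and 96.1, 88.2 and 92.7 with double knockdown. Double knockdown and Btg1 knockdown overlapped each other and lay above the rest, with rises of 0.61 ± 0.05 (adjusted p = 4.4e-10) and 0.49 ± 0.05 (adjusted p = 1.7e-08). Ifi44 stood at 178, 177 and 184 CPM in the scramble libraries, 236, 232 and 196 with Btg1 knockdown, 156, 158 and 165 with Btg2 knockdown and 212, 223 and 209.9 with double knockdown. Btg2 knockdown was lowest, and Ifi44 changed by 0.30 ± 0.05 (adjusted p = 1.3e-04) with Btg1 knockdown, -0.17 ± 0.05 (adjusted p = 0.02) with Btg2 knockdown and 0.26 ± 0.05 (adjusted p = 5.3e-04) with double knockdown. Lgals3bp, a secreted galectin-binding glycoprotein, stood at 1148, 1096 and 1099 CPM in the scramble libraries, 1188, 1261 and 1213 with Btg1 knockdown, 880.2, 873 and 848 with Btg2 knockdown and 1092, 1002 and 1075 with double knockdown. The Btg2 knockdown libraries were the lowest, and double knockdown lay just below scramble. Lgals3bp changed by 0.13 ± 0.04 (adjusted p = 0.014) with Btg1 knockdown, -0.36 ± 0.04 (adjusted p = 5.5e-07) with Btg2 knockdown and -0.08 ± 0.04 with double knockdown, which did not pass. With Btg1 knockdown Lgals3bp did not pass without scramble replicate 2 (adjusted p = 0.065) or 3 (0.0585), or without Btg1 knockdown replicate 2 (0.077), and with Btg2 knockdown Ifi44 did not without scramble replicate 3 (0.075) or Btg2 knockdown replicate 1 (0.074) or 2 (0.064). Socs1, a feedback inhibitor of JAK kinases, rose by 0.65 ± 0.14 (adjusted p = 9.7e-04) with Btg1 knockdown and by 0.59 ± 0.15 (adjusted p = 0.0046) in double minus Btg2 knockdown. With double knockdown against scramble it changed by 0.20 ± 0.15 (adjusted p = 0.3), which did not pass, and it was lower in double minus Btg1 knockdown, at -0.44 ± 0.14 (adjusted p = 0.025). That last call was lost without double knockdown replicate 1 (adjusted p = 0.067) or 2 (0.11), or without Btg1 knockdown replicate 1 (0.081) or 2 (0.13). Ifi27, the member with the highest level, changed by 0.05 ± 0.05 with Btg1 knockdown, which did not pass.

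The effect of each siRNA can be read a second time in libraries that share none with the first reading. The Btg1 siRNA is read from Btg1 knockdown minus scramble and again from double minus Btg2 knockdown. In the second reading 36 of 46 members were higher and 2 lower (median 0.40), against 15.2% and 17.0% of all genes. Members higher in both readings numbered 32 (69.6%), against 7.81% of all genes, and 1 (2.17%), Cxcl11, was lower in both, against 8.92%. Rsad2 gained 0.73 ± 0.06 in the second reading, Ifi47 1.20 ± 0.07, Zbp1 1.02 ± 0.15, Rtp4 0.81 ± 0.06 and Uba7 0.71 ± 0.05. Across the 46 members the changes of both readings had a Pearson correlation of 0.606, against 0.448 over all genes, and 42 had the same sign. Genes are not independent replicates, so this correlation only describes the plot of both readings.

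The Btg2 siRNA is read from Btg2 knockdown minus scramble and again from double minus Btg1 knockdown, where 2 members were higher and 10 lower (median -0.05), against 10.3% and 11.9% of all genes. The split was 4 higher and 6 lower without Btg1 knockdown replicate 1 or 2, and 1 higher and 12 lower without replicate 3 of that group. No member was higher in both readings, against 4.49% of all genes, and 5 (10.9%) were lower in both, against 4.29%. The 5 were Oas1a, Oas2, Ifitm1, Ifi27 and Lgals3bp. Ifi27, at -0.14 ± 0.05 in the first reading, did not pass there without scramble replicate 1 (adjusted p = 0.13) or 2 (0.13), or without Btg2 knockdown replicate 2 (0.054) or 3 (0.27), nor with RLE scaling (0.051) or the replicate block (0.060). Its second-reading call was lost without double knockdown replicate 2 (adjusted p = 0.13) or Btg1 knockdown replicate 2 (0.13) or 3 (0.084), and that of Oas2 without Btg1 knockdown replicate 1 (0.051). Oas2 fell by 0.61 and 0.29 on the log2 scale in the separate readings, and Lgals3bp changed by -0.36 ± 0.04 and -0.21 ± 0.04. The correlation of both readings was -0.000645 over the members and 0.213 over all genes, and 30 members had the same sign.

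**Figure D3:**
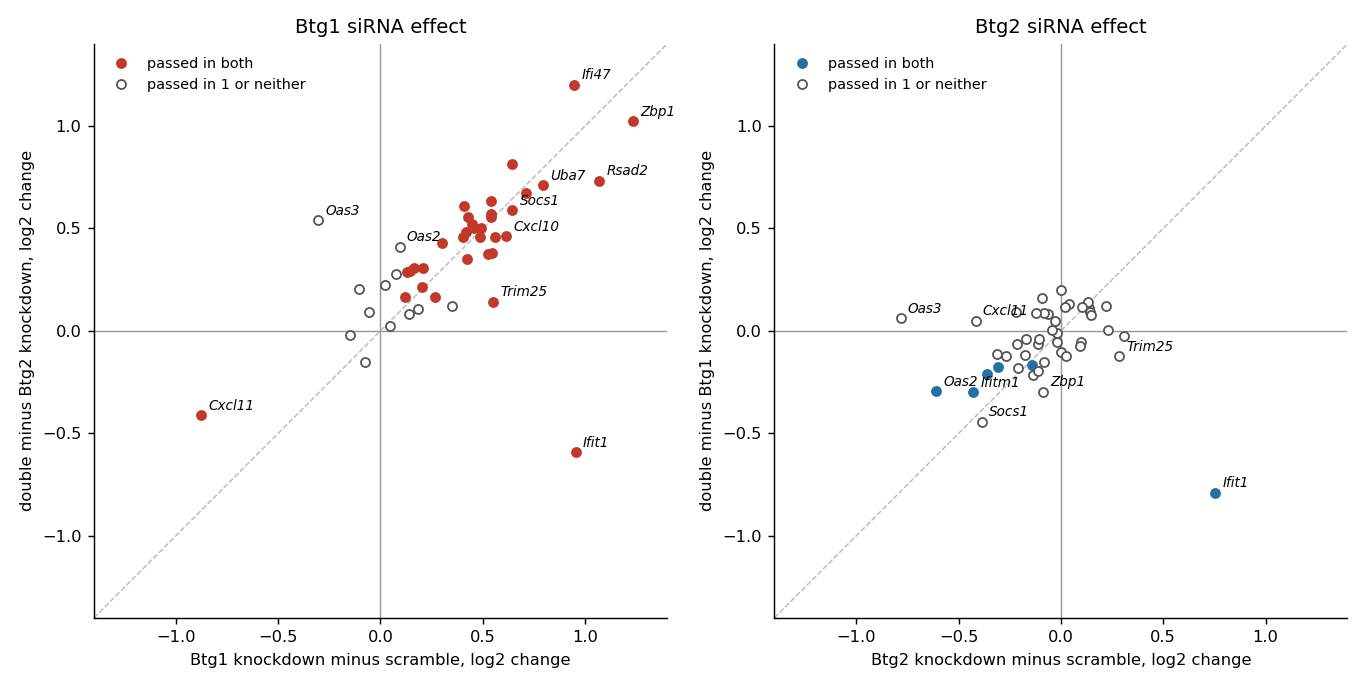
Log2 change of the 46 members with each siRNA in 2 comparisons that share no library: without the other siRNA (x axis) and with it (y axis); filled points passed in both, and the dashed line marks equal changes. In the left panel, for the Btg1 siRNA, most members lie in the upper right, Cxcl11 lies in the lower left and Ifit1 passed in opposite directions; in the right panel, for the Btg2 siRNA, the members gather near 0 and Ifit1 again passed in opposite directions.

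Whether the Btg1 siRNA acted differently when the Btg2 siRNA was present was tested as an interaction, the change in double minus Btg2 knockdown less the change in Btg1 knockdown minus scramble. Of 46 members, 2 had a positive and 3 a negative interaction, against 4.99% and 10.1% of all genes, and the median was 0.04. Ifit1 had -1.54 ± 0.30 (adjusted p = 9.4e-04), Trim25 -0.41 ± 0.08 (adjusted p = 7.6e-04) and Rsad2 -0.33 ± 0.09 (adjusted p = 0.016), that is, a lower change with the Btg1 siRNA where the Btg2 siRNA was present. On the Btg2 siRNA Ifit1 changed by -0.59 ± 0.21 (adjusted p = 0.036), Trim25 by 0.14 ± 0.05 (adjusted p = 0.048) and Rsad2 by 0.73 ± 0.06 (adjusted p = 8.4e-08). That call of Ifit1 was lost without double knockdown replicate 1 (adjusted p = 0.077), 2 (0.061) or 3 (0.077), without Btg2 knockdown replicate 2 (0.18) or 3 (0.080), and in a fit of only the groups compared (0.0605). That of Trim25 was lost without double knockdown replicate 1 (adjusted p = 0.14) or 3 (0.10), without Btg2 knockdown replicate 2 (0.14) or 3 (0.18), in a fit of only the groups compared (0.056) and with limma on TPM (0.065 to 0.067). Cxcl11 had 0.47 ± 0.10 (adjusted p = 0.0022), its fall being smaller there. Gbp5 had 0.31 ± 0.07 (adjusted p = 0.0066): with the Btg1 siRNA it changed by -0.10 ± 0.05 alone and 0.20 ± 0.05 on the Btg2 siRNA. The number of interactions called was 5, and it was 9 without Btg1 knockdown replicate 2 or 3 or without double knockdown replicate 2. The balance of directions moved too, with 6 positive and 3 negative without Btg1 knockdown replicate 2, 2 and 7 without replicate 3, and 5 and 4 without double knockdown replicate 2, and it was 8 and 2 with library size alone and 7 and 3 with DESeq2.

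Upstream of the members, interferon transcripts were scarce. Of 12 listed ligand genes 6 had a row and none passed the filter. Ifna1, Ifna2 and Ifng had 0 counts in every library, which allows up to 3 counts, 0.0638 to 0.126 CPM, in a library. Ifna4 and Ifnk had 2 counts in 1 library each. Ifnb1, the beta interferon, had 0 to 6 counts per library and 36 in all, in 10 of the 12 libraries, too few to compare groups.

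No interferon receptor or kinase gene rose with Btg1 knockdown. Of 14 tested, 0 rose and 6 (42.9%, against 17.8% of all genes) fell with Btg1 knockdown, 7 rose and 3 fell with Btg2 knockdown, and 2 rose and 3 fell with double knockdown. The 6 falls with Btg1 knockdown were 3 without scramble replicate 1 or without Btg1 knockdown replicate 2 or 3. Ifnar1, a type I receptor chain, changed by -0.14 ± 0.05 (adjusted p = 0.023), -0.27 ± 0.05 (adjusted p = 1.4e-04) and -0.29 ± 0.05 (adjusted p = 3.3e-05) in that order, the first not passing without scramble replicate 1 (adjusted p = 0.096) or 3 (0.063), or without Btg1 knockdown replicate 2 (0.075) or 3 (0.059). Ifngr1, the ligand-binding chain of the gamma receptor, changed by -0.21 ± 0.04 (adjusted p = 1.7e-04), -0.30 ± 0.04 (adjusted p = 4.9e-06) and -0.30 ± 0.04 (adjusted p = 1.6e-06). Il10rb, a chain shared with the lambda receptor, changed by -0.43 ± 0.06 (adjusted p = 2.1e-06) with Btg1 knockdown and 0.28 ± 0.05 (adjusted p = 3.6e-04) with Btg2 knockdown.

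Among 15 tested nucleic acid sensors and their adaptors, 6 rose (40.0%, against 18.7% of all genes) and 3 fell (20.0%, against 17.8%) with Btg1 knockdown. With double knockdown 7 rose (46.7%, against 19.4%) and 0 fell, and 4 rose without scramble replicate 3. Ddx58, which encodes RIG-I, stood at 161 ± 1.41 CPM in scramble (SD, n = 3) and 253 ± 15.1 with Btg1 knockdown, a change of 0.65 ± 0.04 (adjusted p = 2.2e-11). Ifih1, which encodes MDA5, rose by 0.43 ± 0.05 (adjusted p = 4.8e-07) with Btg1 knockdown. Irf7, the factor that drives interferon transcription, rose by 0.23 ± 0.04 (adjusted p = 1.8e-04) with Btg1 knockdown and changed by -0.33 ± 0.04 (adjusted p = 5e-06) with Btg2 knockdown.

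Other interferon-responsive genes outside the list of members were counted in the same way. This list too was chosen with earlier results of these data known, so it is not an independent check on the members. Of 25 tested, 19 rose and 1 fell with Btg1 knockdown, 2 rose and 7 fell with Btg2 knockdown, and 16 rose and 1 fell with double knockdown. The 19 rises were 76.0% of the list, against 18.7% of all genes. The 9 calls with Btg2 knockdown were 5 without scramble replicate 1 or Btg2 knockdown replicate 3. Znfx1, a helicase that senses viral RNA, rose by 0.77 ± 0.05 (adjusted p = 1.8e-11) with Btg1 knockdown, the immunoproteasome subunit gene Psmb8 by 0.52 ± 0.06 (adjusted p = 4.8e-07) and the nuclear body gene Sp110 by 0.47 ± 0.05 (adjusted p = 2.9e-08). NF-kB targets, the other arm of the antiviral response, gave 3 rises (16.7%) and 4 falls (22.2%) of 18 with Btg1 knockdown, shares near the 18.7% and 17.8% of all genes. The rises were Nfkbiz, Il6 and Tnf, and the falls were Nfkb2, Tnfaip2, Icam1 and Vcam1. Vcam1, an endothelial adhesion molecule, changed by -0.18 ± 0.06 (adjusted p = 0.015), which did not pass without scramble replicate 1 (adjusted p = 0.084) or Btg1 knockdown replicate 3 (0.087), the NF-kB subunit gene Nfkb2 by -0.26 ± 0.05 (adjusted p = 4.3e-04) and the inhibitor of apoptosis gene Birc3 by -0.19 ± 0.08 (adjusted p = 0.081).

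Averaged over the 46 members, the log2 level of a library relative to the scramble mean was -0.01 to 0.01 in scramble, 0.24 to 0.42 with Btg1 knockdown, -0.08 to -0.04 with Btg2 knockdown and 0.28 to 0.32 with double knockdown. Within Btg1 knockdown, replicate 3 stood at 0.24 and the other 2 at 0.40 and 0.42. Without that library the Btg1 knockdown gave 36 members higher and 1 lower, with a median of 0.48. Leukocytes carry many of these transcripts, and RNA from 17 macrophage and leukocyte markers summed to 65.9 to 79.2 CPM in scramble, 54.6 to 64.4 with Btg1 knockdown, 50.8 to 53.1 with Btg2 knockdown and 58.0 to 60.9 with double knockdown, with replicate 3 highest in the Btg1 knockdown. The marker sum was thus lower in every knockdown library than in every scramble library, and none of the 17 was at 0 in every library. Of 16 such markers tested 0 rose and 4 fell with Btg1 knockdown, and 0 rose and 9 fell with Btg2 knockdown. The falls were 25.0% of these markers against 17.8% of all genes with Btg1 knockdown, and 56.2% against 13.6% with Btg2 knockdown. Cd68 changed by -0.46 ± 0.09 (adjusted p = 4.6e-04) and -0.65 ± 0.10 (adjusted p = 2.2e-05), Mrc1 by -0.41 ± 0.13 (adjusted p = 0.012) and -0.42 ± 0.13 (adjusted p = 0.015). The 4 falls with Btg1 knockdown were 2 without scramble replicate 2 or Btg1 knockdown replicate 2. Mrc1 did not pass there without scramble replicate 2 (adjusted p = 0.056) or Btg1 knockdown replicate 1 (0.055) or 2 (0.080), nor with Btg2 knockdown without scramble replicate 2 (0.0699).

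Markers of other cells moved with the groups too. Of 11 fibroblast markers 0 rose and 8 (72.7%, against 17.8% of all genes) fell with Btg1 knockdown, among them Lum at -0.30 ± 0.05 (adjusted p = 8.4e-05). The fibroblast markers summed to 12470 to 14790 CPM there against 15390 to 15980 in scramble. The 8 falls were 5 without scramble replicate 1 or Btg1 knockdown replicate 2. Endothelial markers summed to 279.7 to 289 CPM in scramble, 249.5 to 271 with Btg1 knockdown, 251 to 260.4 with Btg2 knockdown and 214 to 231 with double knockdown. Eng alone gave 159 to 162 CPM of the scramble sums. Of 10 endothelial markers tested, 1 rose (Tek) and 2 fell (20.0%, against 17.8% of all genes) with Btg1 knockdown. With Btg2 knockdown 0 rose and 4 fell (40.0%, against 13.6%). With double knockdown 1 rose (Tek) and 8 fell (80.0%, against 19.5%), among them Kdr at -0.97 ± 0.07 (adjusted p = 3.2e-10). Cardiomyocyte markers gave 5 rises (45.5%, against 18.7% of all genes) and 4 falls (36.4%, against 17.8%) of 11 with Btg1 knockdown. Among these were Mb at 0.60 ± 0.05 (adjusted p = 1.3e-08) and Pln at -0.38 ± 0.04 (adjusted p = 5.6e-08). Of 7 smooth muscle and pericyte markers 2 rose (28.6%) and 1 fell (14.3%) with Btg1 knockdown, against the same 18.7% and 17.8% of all genes. The rises were Cnn1 at 1.45 ± 0.07 (adjusted p = 5.4e-10) and Tagln at 0.62 ± 0.05 (adjusted p = 1.3e-09), and the fall was Pdgfrb. Cnn1 alone of the 7 also passed with Btg2 knockdown, as a rise, at 118 to 129 CPM against 57.6 to 67.3 in scramble. In bulk RNA fewer cells of a type and less RNA per cell cannot be told apart, and the part of these markers in the members' changes was not tested.

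**Figure D4:**
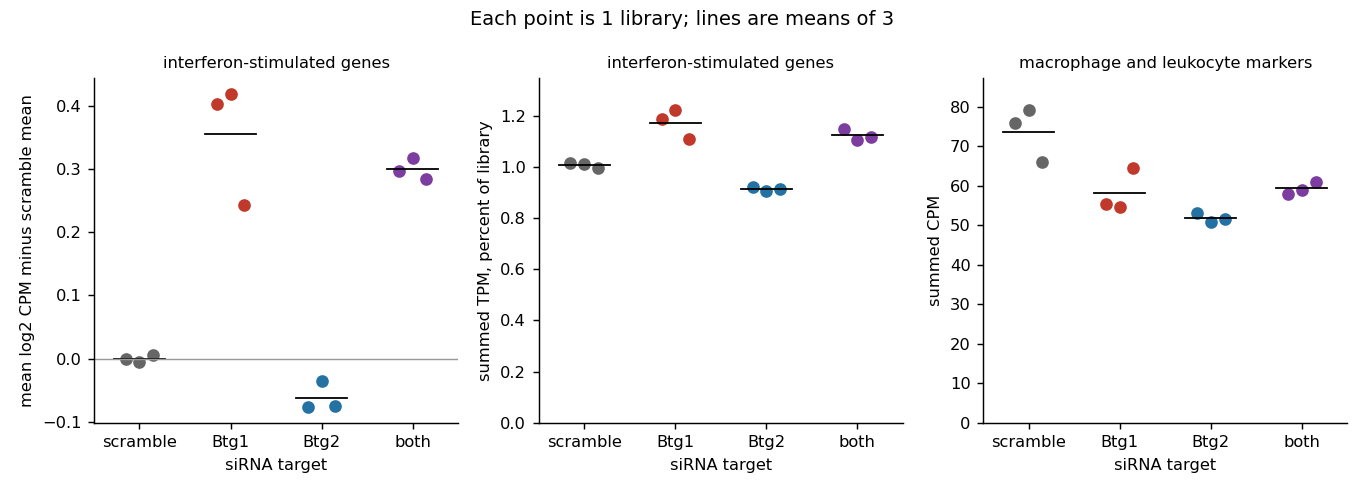
Each point is 1 library and each line the mean of 3, by siRNA target (x axes): mean log2 CPM of the 46 members minus the scramble mean (left), their summed TPM as a percent of the library (middle) and the summed CPM of 17 macrophage and leukocyte markers (right). The members' values are higher in the 6 libraries with the Btg1 siRNA, while the marker sum is highest in scramble.

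Members that rose were found both with and without the promoter letters printed above. Of 36 tested members with a window, 22 had an ISRE core, and 16 of these were higher with the Btg1 siRNA in both readings. Of the 14 without an ISRE core, 11 were higher in both. A GAS stood in 15, of which 11 were higher in both. All 7 tested members with neither motif (Oasl, Uba7, Trim25, Mx1, Stat2, Parp9 and Ifi35) were higher in both. For Oasl, Mx1, Stat2 and Parp9 the window surrounded a start downstream of the outermost RefSeq start. A window without these exact letters does not show that a gene lacks such an element. Over all 9410 tested genes with 1 window, the share higher in both was 10.6% with an ISRE core, 7.67% without, 9.06% with a GAS and 7.65% with neither. These genes include the members. Of the 71 genes with an ISRE core that were higher in both, 16 were members, and of the 56 with a GAS, 11 were. Differences between these shares were not tested. Cxcl11 and Cxcl9, each with 1 GAS and no ISRE core, moved in opposite directions, and Oas1a and Oas1b, with the same motif letters, both rose with the Btg1 siRNA while only Oas1a passed, as a fall, with the Btg2 siRNA alone. The difference between the responses of these genes was not tested.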

How the data were processed

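RNA was amplified with an Ovation RNA-Seq kit, made into Nextera XT libraries and read in pairs, per the labels' protocols. Reads were trimmed and checked (FastQC, cutadapt, Trim Galore), aligned with STAR and counted with featureCounts on rn5, as far as the tool names in the submitters' processing notes go; versions, strand, annotation and multimapping settings are not given there. The authors deposited 2 tables of 12 libraries: raw counts and TPM values (transcripts scaled by length and depth). Reads without molecular identifiers are not independent molecules, so limits from counts cover counting error only.

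Counts were tested with edgeR 4.0.16 (R 4.3.3): TMM scaling (factors 0.971 to 1.02), filterByExpr, 1 mean per group, 12 libraries in one robust quasi-likelihood fit with 8 residual degrees of freedom. P-values were adjusted by Benjamini-Hochberg over 12535 genes in each of 6 comparisons; 4884 genes fell to the filter. CPM are TMM-scaled, and each SE was computed as the log2 change divided by the root of F. Groups and replicate numbers come from titles and treatment labels. No replicates were identical (chi-square per degree of freedom 4.17 to 27.1). Values in every library are given for up to 3 tested members per role group with the smallest p against scramble. They are also given for Oas2, chosen after its values were seen. Pathway and marker lists give changes for up to 3 genes each. The members, role groups and lists were chosen with earlier results of these data known. Alternatives were DESeq2 1.42.0, other scalings and filters, only the groups compared, a replicate block, limma 3.58.1 on log2 of TPM plus 1 or 0.1, and leaving out each library. The fitting step was tested on simulated counts. Promoter windows are RefSeq's on GRCr8, a later assembly than rn5, matched by symbol.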

Additional observations from a re-analysis of the deposited data

Results flagged for a closer look

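In 5 members the response to the Btg1 siRNA with the Btg2 siRNA present differed from the response without it, by edgeR's interaction test. Cxcl11, the chemokine that fell, had a difference of 0.467 on the log2 scale. Ifit1 had -1.545, at a level of about 1 to 3 CPM. Trim25 had -0.408, Rsad2 had -0.334 and Gbp5 had 0.309. In Ifit1, Trim25 and Rsad2 the change with the Btg1 siRNA was lower with the Btg2 siRNA present; the fall of Ifit1 there did not pass when any of 5 of the 6 libraries compared was left out (adjusted p 0.061 to 0.18). Shares of all genes with such a difference are given with the interaction above.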

How the results depend on the processing

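The numbers of members called stayed within 1.5 times in 5 of the 6 comparisons under all alternatives run; the exception was the interaction. Its 5 calls were 10 with DESeq2, 10 with library size alone and 8 with a filter of 1 CPM in 6 libraries, and 5 to 9 when 1 library was left out, with 9 without replicate 2 or 3 of the Btg1 knockdown or replicate 2 of the double knockdown; the cause was not tested. Leaving out 1 library gave 34 to 37 calls for Btg1 knockdown, 15 to 19 for Btg2 knockdown and 33 to 35 for double knockdown against scramble, and 35 to 37 and 9 to 13 for double against Btg2 and Btg1 knockdown. With the replicate block the counts were 37, 19, 36, 38, 10 and 7, in the order Btg1 knockdown, Btg2 knockdown and double knockdown against scramble, double against Btg2 knockdown, double against Btg1 knockdown, and interaction. Of 18 pairs of same-numbered libraries, 0 had deviations correlated above 0.1 (-0.092 to 0.0599), while a differently numbered pair reached 0.133. Whether same-numbered libraries shared a culture or litter cannot be read from these correlations. Called members that passed under every alternative numbered 32 of 37, 13 of 20, 31 of 37, 34 of 38, 6 of 12 and 4 of 5 in that order, and none of these called members changed sign. With limma on TPM the Btg1 knockdown call of Ifnar1 (adjusted p = 0.081 and 0.082) and the Btg2 knockdown calls of Parp14 (0.115 and 0.113) and Ifi44 (0.065 and 0.064) were lost, and with library size alone that of Parp14 (0.10). The interaction of Rsad2 was lost with library size alone (adjusted p = 0.0514) and with limma on TPM (0.0665 and 0.0654). Over 75 named genes and their alternatives, 6624 of 7114 results kept their side of the threshold and sign, 232 lost a call, 125 gained 1, 133 uncalled changes turned sign and 0 reversed. The median of all genes lay between -0.036 and 0.046 under every setting. Depth limits Oas3, Irf8, Ifit1, Cxcl9 and the interferon genes, which had few counts.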
